A study of Mus musculus with 8 samples.

Results

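The vascular endothelial growth factor (VEGF) and angiopoietin genes were followed through single cells of the injured mouse cortex. The set holds 10 genes of the 21848 in the count tables, chosen by name: the ligands Vegfa, Vegfb, Vegfc and Pgf, their receptors Flt1, Kdr and Flt4, the angiopoietins Angpt1 and Angpt2, and the angiopoietin receptor Tek. All 10 were found. Levels were read in 44072 cells, of which 7075 were endothelial-like.

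The 8 adult mice all underwent photothrombosis (PT), in which a photosensitive dye and light through an illuminated area of 4 mm close cortical vessels. The right sensorimotor cortex, holding the lesion and the spared tissue around it, was taken 6 days after PT, without meninges and after myelin removal. An osmotic minipump placed 2 days before PT delivered saline to the 4 control mice or ancrod, a snake venom enzyme that depletes plasma fibrinogen, at 2.4 U per day (2 mg per kg) to the other 4. The labels give female mice of the "Bl/J6" strain, whereas the study's methods give C57BL/6N mice of both sexes, and this was not settled. Each mouse gave 1 library. Mice 1 to 3 of each group formed the first injury and sequencing batch and mouse 4 of each group the second. There was no uninjured group, so every value describes injured cortex. Depletion acts on fibrinogen of the whole body and is not specific to a cell type.

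Vegfa binds Flt1 (VEGFR1) and Kdr (VEGFR2), and Kdr carries most of the growth signal in endothelium. Vegfb and Pgf bind Flt1, which holds ligand tightly and signals weakly, and Vegfc binds Flt4 (VEGFR3) and, after processing, Kdr. Angpt1 activates Tek (Tie2) and steadies the vessel wall, while Angpt2 competes with it in many settings and is known from sprouting and regressing vessels.

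Libraries held 97861434 to 122758649 unique molecular identifiers (UMIs) in the control group and 126682918 to 142139441 in the ancrod group, without overlap, and gave 5080 to 6277 droplets each by the rule of at least 2000 UMIs and under 20% mitochondrial UMIs. Any pair of libraries shared at most 15 cell barcodes. Cells were clustered without the 10 genes and named by markers that hold none of them. The names rest on rebuilt clusters, 4197 cells kept no name, and the NK cell-like class also held T cell genes. Cldn5, a defining endothelial gene, averaged 4500 CPM in endothelial-like and 13.2 CPM in pericyte-like cells, and Tmem119, a microglial one, 280 CPM in microglia-like and 61 CPM in macrophage-like cells. Levels here are CPM, UMIs of a gene per 1000000 UMIs after summing all cells of a class in a mouse, given as the mean over mice. Free RNA, the content of droplets with at most 100 UMIs, is given as the median over the 8 mice beside the levels it could touch.

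**Figure D1:**
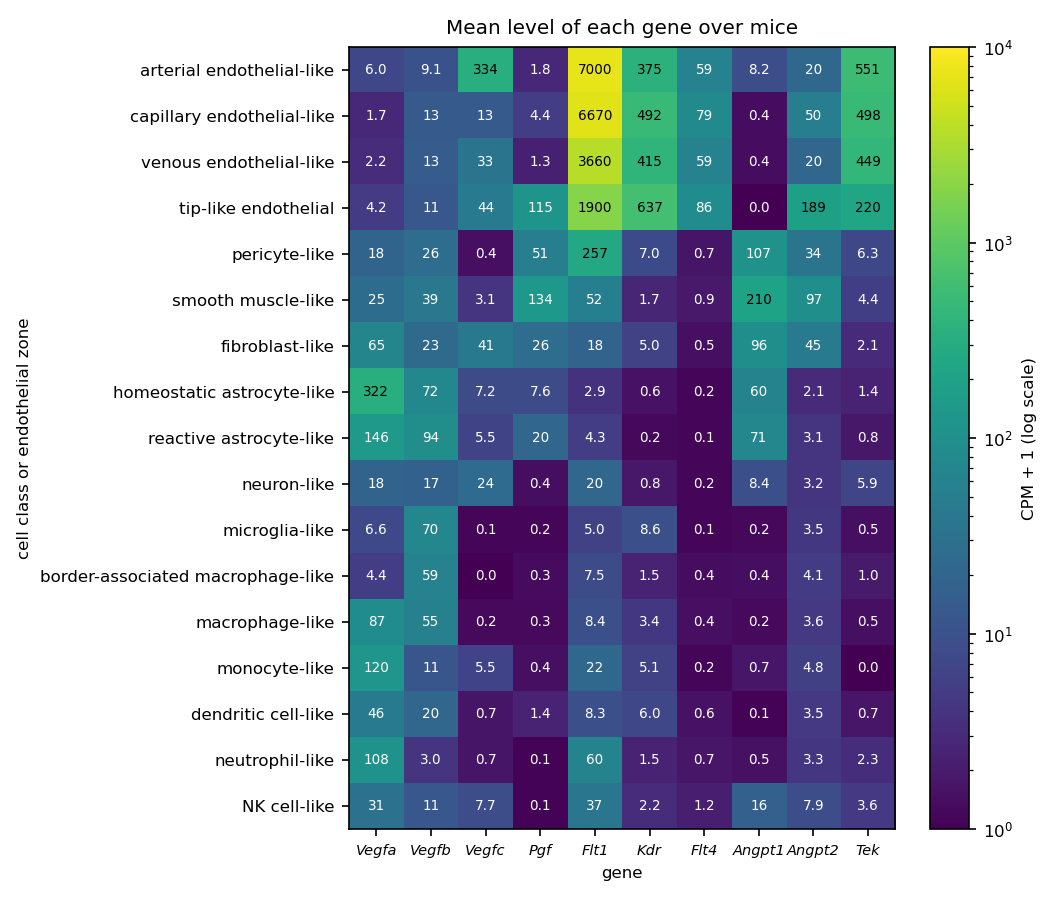
Mean level over mice in CPM (colour, log scale, and number in each cell) of the 10 genes (columns) in 17 cell classes and endothelial zones (rows). Flt1, Kdr, Flt4 and Tek are high in the 4 endothelial rows at the top, Vegfa in the astrocyte-like rows (322 and 146), Angpt1 in the mural, fibroblast-like and astrocyte-like rows, and Angpt2 in the tip-like and smooth muscle-like rows.

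Vegfa, the main growth factor for endothelium (GRCm39 chromosome 17, 46327919 to 46343309, minus strand), was highest in astrocyte-like cells and low in endothelial-like cells. In homeostatic astrocyte-like cells it read 363, 423, 280 and 281 CPM in control mice 1 to 4 and 349, 223, 391 and 266 CPM in ancrod mice 1 to 4, a mean of 322. In reactive astrocyte-like cells, named by Gfap, Vim and Lcn2 among others, it read 213, 156, 157 and 139 CPM in control mice and 158, 142, 124 and 79.1 CPM in ancrod mice, a mean of 146. The homeostatic level exceeded the reactive one in 8 of 8 mice, with a ratio of means of 2.21. The groups overlapped in both states.

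Infiltrating myeloid cells came next for Vegfa, though the reactive astrocyte-like level was above the monocyte-like one in 6 of 8 mice only. Monocyte-like cells averaged 120 CPM, neutrophil-like cells 108 CPM and macrophage-like cells 86.9 CPM, with the monocyte-like level above the macrophage-like one in 8 of 8 mice. The neutrophil-like class could not be placed between them, since its level was above the macrophage-like one in 2 of 8 mice only. The neutrophil-like values ran from 10.8 to 252 CPM and rested on 12 to 240 cells a mouse. Microglia-like cells, the resident macrophages, stood at 6.63 CPM against 86.9 CPM in macrophage-like cells, and endothelial zones at 5.98 CPM or less, all under the free RNA level of 64.1 CPM. Because cell numbers differ, the source of Vegfa UMIs differed from the order of levels: astrocyte-like cells held a mean of 41.6% of the Vegfa UMIs of a mouse (16.9 to 75%), macrophage-like cells 22.4% and fibroblast-like cells 15%.

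Vegfb (chromosome 19, 6958447 to 6965127, minus strand), a Flt1 ligand with little angiogenic action of its own, varied far less between classes. It was highest in reactive astrocyte-like cells, with 110, 83.9, 111 and 88.2 CPM in control mice and 92.7, 93.5, 90.8 and 85 CPM in ancrod mice. Homeostatic astrocyte-like cells read 90.6, 68.2, 73 and 66.9 CPM in control mice and 55.4, 70.3, 71.8 and 78.1 CPM in ancrod mice. The 2 states kept opposite orders for Vegfa and Vegfb: Vegfb was higher in the reactive state in 8 of 8 mice (ratio of means 1.31). Microglia-like cells, at 62.6 to 76.1 CPM, did not separate from homeostatic astrocyte-like cells (higher in 4 of 8 mice), and held 53.8% of all Vegfb UMIs through their number. The free RNA level of Vegfb was 51.9 CPM.

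**Figure D2:**
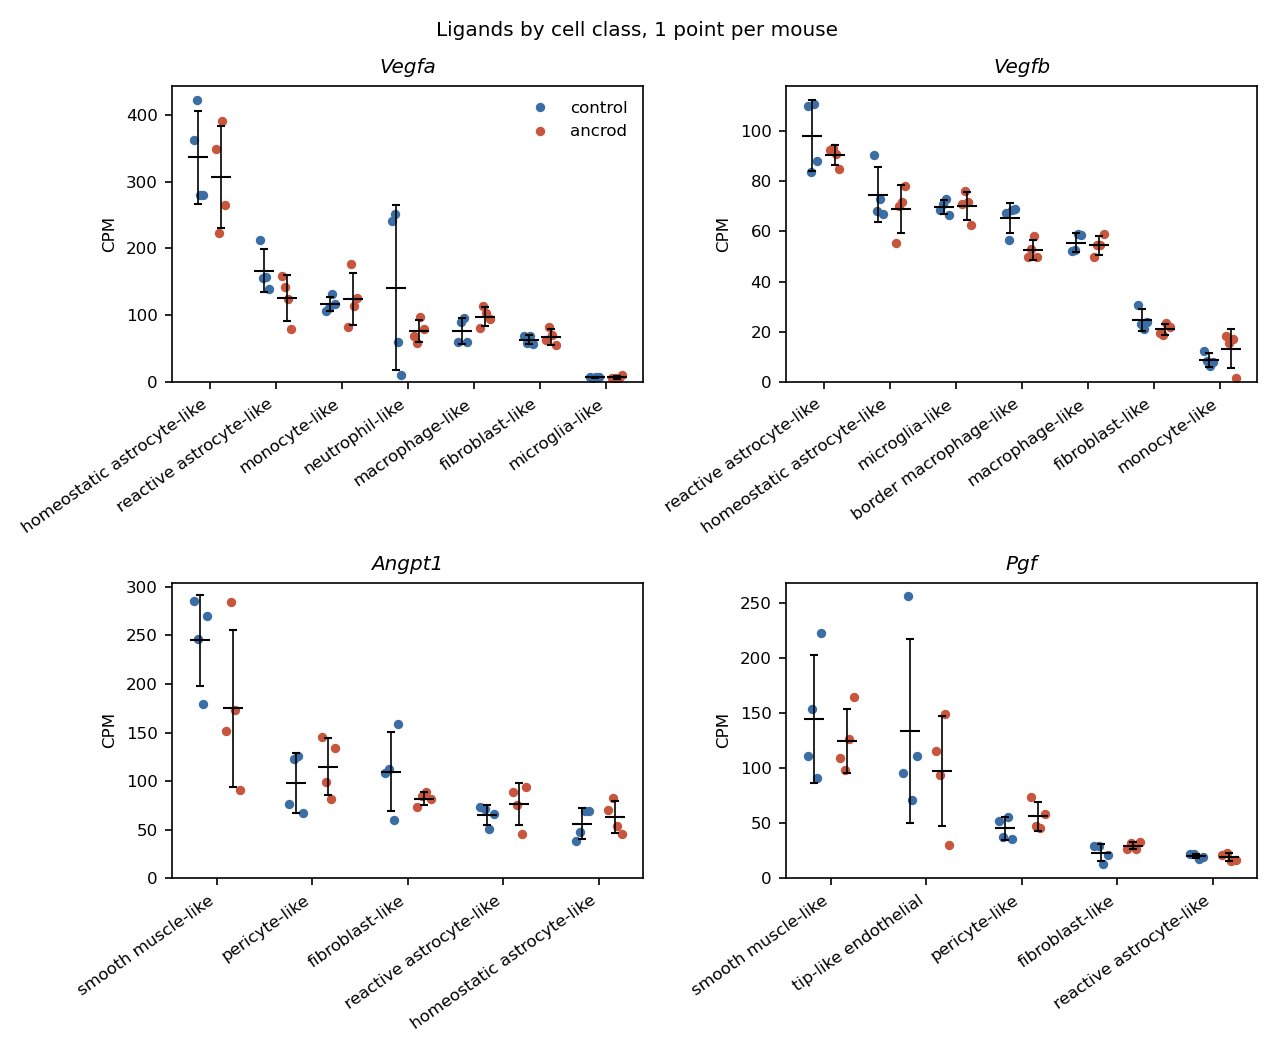
Levels of 4 ligands in CPM (vertical axes from 0) by cell class, 1 point per mouse, blue for control and red for ancrod, with the mean (dash) and SD (bar) of 4 mice. Vegfa is lower in reactive than in homeostatic astrocyte-like cells, and the colours mix in most classes. The neutrophil-like Vegfa values run from 10.8 to 252.

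Vegfc (chromosome 8, 54530257 to 54640131, plus strand), the ligand best known for lymphatic growth, marked arterial endothelium. The arterial zone, named by Bmx, Gkn3 and Sema3g among others, read 246, 319, 398 and 455 CPM in control mice and 242, 151, 432 and 431 CPM in ancrod mice. The tip-like zone, named by Esm1, Apln and Plvap among others, read 47.8, 53.7, 56.1 and 55.3 CPM in control mice and 39.3, 15.8, 36 and 45.7 CPM in ancrod mice. The arterial level was the higher in 8 of 8 mice, 7.64 times the tip-like one by the ratio of means, and the tip-like level did not separate from that of fibroblast-like cells (40.8 CPM, lower in 6 of 8 mice). Capillary cells stood at 12.7 CPM, so that the arterial zone lay 4.64 log2 units above them (SD 0.62, n = 8 mice). Free RNA held 7.98 CPM. By number of UMIs, endothelial-like cells held 51.3% of Vegfc and fibroblast-like cells 31% (3.54 to 49.6% over mice). The means were 66.4 and 20.7% in control mice and 36.2 and 41.3% in ancrod mice. Such shares depend on cell numbers as well as levels. Endothelial-like cells numbered 1035 to 1308 in control and 391 to 825 in ancrod mice, and fibroblast-like cells 32 to 219 and 103 to 565. The Vegfc level was 51.2 CPM in control against 43.5 CPM in ancrod mice in endothelial-like cells. In fibroblast-like cells it was 42.3 against 39.3 CPM.

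Pgf (placental growth factor, chromosome 12, 85213409 to 85224564, minus strand) had its highest levels in mural cells and tip-like endothelium. Smooth muscle-like cells read 111, 153, 90.8 and 222 CPM in control mice and 109, 97.8, 126 and 164 CPM in ancrod mice, on 18 to 44 cells a mouse. Tip-like cells read 95.6, 256, 71.3 and 111 CPM in control mice and 115, 93.2, 149 and 30.3 CPM in ancrod mice. These 2 did not separate (smooth muscle-like higher in 5 of 8 mice), and pericyte-like cells followed at 50.8 CPM. By number of UMIs, fibroblast-like cells held 33% of Pgf (4.25 to 62.7% over mice) and all endothelial-like cells 24.7%. Pericyte-like cells held 6.94% and smooth muscle-like cells 5.56%. Inside the endothelium the tip-like zone stood alone: its level was above that of capillary cells in 8 of 8 mice. Capillary cells averaged 4.41 CPM, under the free RNA median of 6.88 CPM, and the log2 ratio was 4.49 (SD 0.83). The part of free RNA in the capillary level was not tested.

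The receptors Flt1 (chromosome 5, 147498414 to 147662826, minus strand), Kdr (chromosome 5, 76093487 to 76139884, minus strand), Flt4 (chromosome 11, 49500090 to 49543582, plus strand) and Tek (chromosome 4, 94627291 to 94763224, plus strand) were endothelial genes in this tissue. Endothelial-like cells held 87.8% of Flt1, 82.9% of Kdr, 86.2% of Flt4 and 87.7% of Tek UMIs, as means over mice, and cells without a name held 10.9 to 12.1%. For Flt1 that share was 2.78 to 8.41% in control and 11.5 to 19.9% in ancrod mice, and among the unnamed cells 492 formed a cluster with markers of endothelium and pericytes together. Across the 17 classes and zones the mean log2 levels of the 4 receptors rose and fell together, with Pearson's r from 0.93 to 0.98 for each pair. This is a description over points that share libraries, in which the 4 endothelial zones lay above all other classes for each receptor. Between zones the receptors differed: tip-like over capillary was 0.38 log2 units for Kdr, 0.07 for Flt4, -1.17 for Tek and -1.83 for Flt1. Among 8716 genes of at least 50 CPM in 1 class, the patterns nearest to Tek were Podxl (r = 0.996), Fgd5 (0.994) and Ptprb (0.993), and those nearest to Kdr were Kank3 (0.965), Flt4 (0.965) and Tie1 (0.960).

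Letters that such genes have in common can be looked for, among other places, in the sequence before the start of a gene. The windows below are the 150 bases before the outermost annotated start of Flt1, Flt4 and Tek, in GRCm39 with the GENCODE annotation, 5′ to 3′ on the strand of the gene. Capitals mark GGAA, the core letters of the ETS factor family that is common in endothelial promoters, or its reverse complement TTCC. Flt1 lies at chr5:147662827-147662976 (minus strand), Flt4 at chr11:49499940-49500089 (plus strand) and Tek at chr4:94627141-94627290 (plus strand).
Flt1: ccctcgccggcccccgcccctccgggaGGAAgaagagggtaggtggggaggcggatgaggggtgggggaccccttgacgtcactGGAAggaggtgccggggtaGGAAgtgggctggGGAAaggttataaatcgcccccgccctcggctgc
Flt4: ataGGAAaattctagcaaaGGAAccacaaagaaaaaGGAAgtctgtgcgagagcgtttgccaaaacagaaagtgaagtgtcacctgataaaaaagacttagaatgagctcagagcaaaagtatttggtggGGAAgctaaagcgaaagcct
Tek: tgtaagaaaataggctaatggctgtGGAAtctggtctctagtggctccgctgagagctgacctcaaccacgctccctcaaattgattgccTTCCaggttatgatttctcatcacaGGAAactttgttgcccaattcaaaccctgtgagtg
The letters occurred 4 times in the Flt1 window, 4 times in that of Flt4 and 3 times in that of Tek. Of 21770 genes with a window of the same length, 82.2% held at least 1 match, so a match is the rule and marks no gene. The Kdr window is not shown because the canonical start lies 766 bases inside the outermost one.

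Flt1, the high-affinity receptor, was high in arterial and capillary cells and lower in venous and tip-like cells. The arterial zone read 7090, 6780, 6950 and 6650 CPM in control mice and 7010, 7880, 6710 and 6960 CPM in ancrod mice, and the capillary zone 6440, 6840, 7000 and 6420 CPM in control mice and 6310, 7140, 6260 and 6940 CPM in ancrod mice. The venous zone (3660 CPM) and the tip-like zone (1900 CPM) were lower than the capillary zone in 8 of 8 mice, by 0.87 (SD 0.13) and 1.83 (SD 0.28) log2 units. The arterial and capillary zones differed by 0.07 log2 units (SD 0.07), with the arterial zone higher in 6 of 8 mice.

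Kdr, the main signalling receptor, was highest in the tip-like zone. Tip-like cells read 706, 591, 578 and 703 CPM in control mice and 562, 685, 596 and 671 CPM in ancrod mice, against 441, 440, 498 and 551 CPM and 483, 385, 594 and 545 CPM in capillary cells. The tip-like zone was 0.38 log2 units (SD 0.27) above the capillary zone, higher in 8 of 8 mice. Venous and arterial cells lay 0.25 and 0.40 log2 units below the capillary zone, lower in 8 of 8 mice. The tip-like zone thus had the highest Kdr and the lowest Flt1 of the 4 zones.

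Flt4, known from lymphatic and sprouting endothelium, was found in all 4 zones. Tip-like cells read 127, 88.5, 57.8 and 102 CPM in control mice and 70.3, 109, 78.8 and 52.5 CPM in ancrod mice, and capillary cells 86.6, 77, 78.6 and 76.1 CPM and 79.5, 84.5, 77 and 69.5 CPM. These zones did not separate (tip-like higher in 5 of 8 mice). Arterial and venous cells were lower than capillary cells in 8 of 8 mice, by 0.43 and 0.41 log2 units.

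Tek differed little between the mature zones and was lower in tip-like cells. The arterial zone read 573, 479, 563 and 663 CPM in control mice and 507, 534, 554 and 531 CPM in ancrod mice, and the capillary zone 528, 448, 507 and 588 CPM and 388, 521, 460 and 545 CPM. Tip-like cells, at 220 CPM, lay 1.17 log2 units (SD 0.20) below capillary cells, in 8 of 8 mice. The venous zone lay 0.15 log2 units (SD 0.08) below capillary cells in 8 of 8 mice, and the arterial zone 0.15 log2 units (SD 0.13) above them in 7 of 8.

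**Figure D3:**
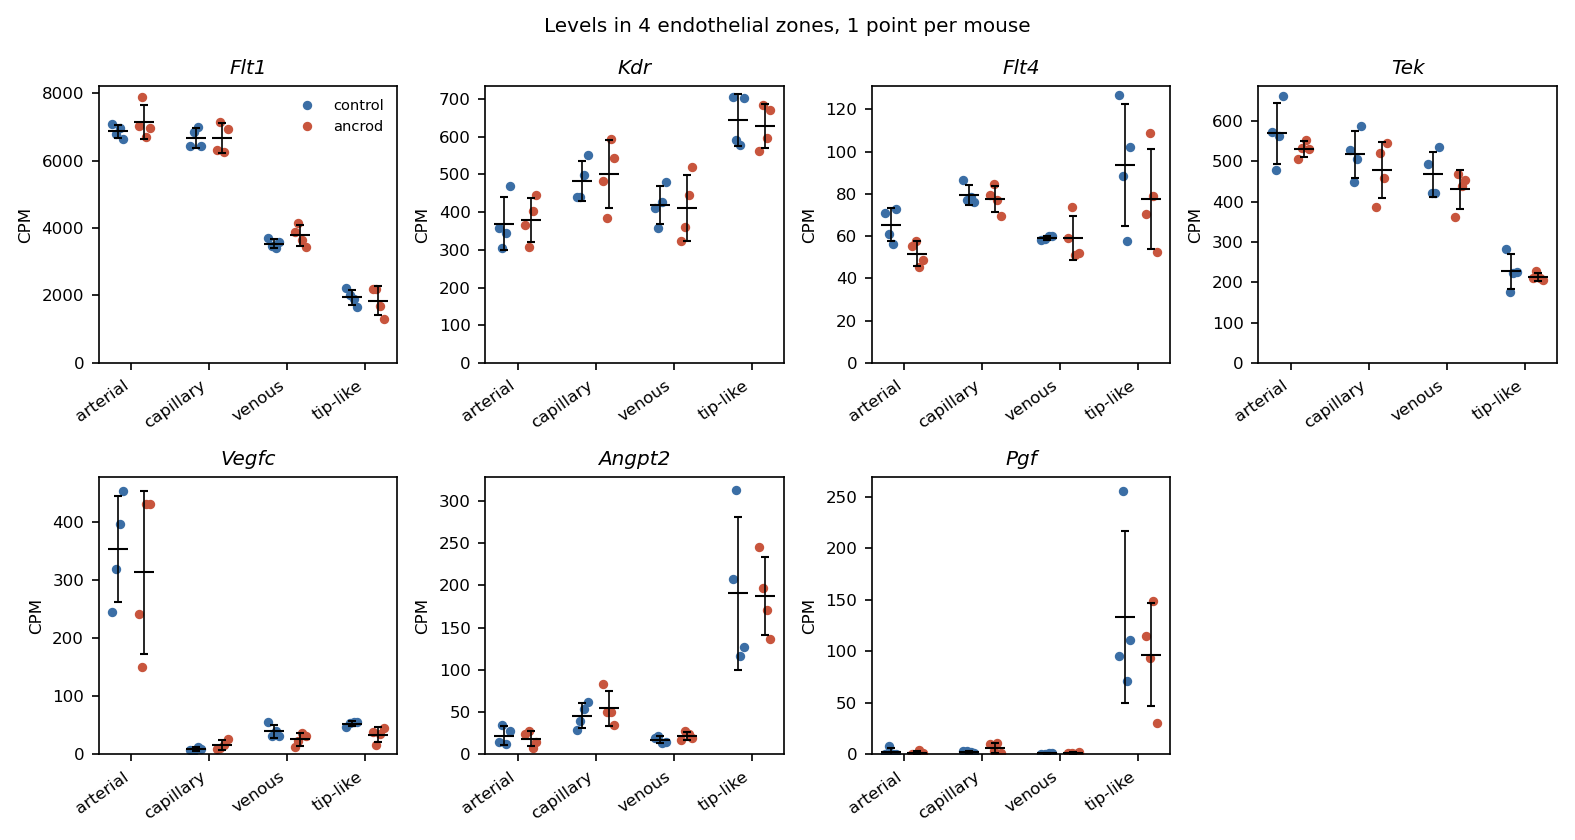
Levels in CPM (vertical axes from 0) of 7 genes in 4 endothelial zones, 1 point per mouse, blue for control and red for ancrod, with the mean (dash) and SD (bar) of 4 mice. Tip-like cells have the lowest Flt1 and Tek and the highest Kdr, Angpt2 and Pgf, and Vegfc stands out in the arterial zone.

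Outside the endothelium the receptors had to be read against free RNA, which carried 387 CPM of Flt1, 45.5 CPM of Kdr, 47.8 CPM of Tek and 7.71 CPM of Flt4. Pericyte-like cells, which wrap capillaries, read 257 CPM of Flt1 and 6.97 CPM of Kdr. Flt1 over Kdr, by UMIs, was 6.97 to 10.7 in free RNA, 8.27 to 14.0 in all endothelial-like cells, 10.5 to 18.5 in capillary cells and 17.8 to 63.0 in pericyte-like cells. The pericyte-like ratios rest on 55 Kdr UMIs in all, as few as 4 in a mouse, and their lowest overlapped the capillary range. Microglia-like cells held 2554 Kdr and 1443 Flt1 UMIs, and Kdr over Flt1 was 1.04 to 3.07 against 0.093 to 0.144 in free RNA, higher in 8 of 8 mice. Their Kdr level was low, at 8.61 CPM. The part of free RNA in the levels of either class was not tested. In smooth muscle-like cells, control mouse 2 and ancrod mouse 3 held 144 and 194 CPM of Flt1 against 6.05 to 23.7 CPM in the others. The endothelial marker Cldn5 reached 165 CPM in that class, and its part in those values was not tested.

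Angpt1 (chromosome 15, 42288058 to 42540417, minus strand), the Tek agonist, came from the cells around the endothelium. Smooth muscle-like cells read 285, 246, 179 and 270 CPM in control mice and 152, 284, 173 and 90.8 CPM in ancrod mice. Pericyte-like cells read 76.7, 123, 126 and 67.1 CPM in control mice and 145, 99.6, 81.6 and 134 CPM in ancrod mice. Smooth muscle-like cells were the higher in 7 of 8 mice, while pericyte-like, fibroblast-like (95.9 CPM), reactive (70.8 CPM) and homeostatic (59.5 CPM) astrocyte-like cells formed a run in which no neighbours separated in every mouse. The free RNA level was 12.8 CPM, and capillary, venous and tip-like cells held under 1 CPM. Arterial cells held 6.46 CPM in control and 10 CPM in ancrod mice, above capillary cells in 8 of 8 mice. By number of UMIs, fibroblast-like cells held 48.1% of Angpt1 (16.1 to 69.5% over mice) and astrocyte-like cells 26.4%.

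Angpt2 (chromosome 8, 18739202 to 18791603, minus strand), the context-dependent antagonist, was highest in the tip-like zone. It read 207, 312, 116 and 127 CPM there in control mice and 245, 197, 171 and 136 CPM in ancrod mice. Smooth muscle-like cells, next in order and lower in 6 of 8 mice, read 83.1, 80.8, 121 and 28.9 CPM in control mice and 121, 55, 140 and 147 CPM in ancrod mice. Tip-like cells lay 1.89 log2 units (SD 0.71) above capillary cells, which themselves lay above arterial and venous cells by 1.31 and 1.27 log2 units, each in 8 of 8 mice. The free RNA level of Angpt2 was 9.89 CPM. By number of UMIs, endothelial-like cells held 43.4% of Angpt2 and fibroblast-like cells 28.4% (3.56 to 45% over mice). The genes nearest to the Angpt2 pattern were Hspg2 (r = 0.917), Igfbp7 and Nid1 (0.915 each).

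Ancrod was compared with control in each class from UMIs summed per mouse, with edgeR's quasi-likelihood test and Benjamini-Hochberg adjustment over all genes of the class. Of the 190 combinations of a member with 1 of 19 classes and zones, 112 passed the filter on low counts and were tested, and none of them passed an adjusted p of 0.05 (lowest 0.204). Over all genes and classes 0.00373% of 187743 tests passed. At an unadjusted p under 0.05 there were 13 member tests, 4 higher and 9 lower with ancrod, or 11.6% against 5.62% of all tests. DESeq2 also called none of 111, with 10 at an unadjusted p under 0.05. By class the share of all genes called was 0.0434% in border-associated macrophage-like cells, 0.0159% in fibroblast-like cells, 0.00888% in reactive astrocyte-like cells and 0% in the other 16, so few genes of any kind were called. Within the first batch, with 3 mice a group, edgeR called none of 109 and 13 lay under an unadjusted p of 0.05, and the second batch holds 1 mouse of each group.

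The intervals say how large a change could have been missed. Over the 20 combinations named above, 2 classes for each member, log2 fold changes ran from -0.65 to 0.54 and the 95% intervals from -1.41 to 1.27. They were narrow for the receptors in capillary cells: Flt1 changed by 0.00 (-0.18 to 0.18), Flt4 by -0.03 (-0.21 to 0.15), Kdr by 0.06 (-0.22 to 0.35) and Tek by -0.11 (-0.34 to 0.13). Ligands in rare classes were less well bounded, with Pgf at -0.52 (-1.41 to 0.37) in tip-like cells and Angpt2 at 0.54 (-0.18 to 1.27) in smooth muscle-like cells. The Pgf value turned positive, to 0.06 without control mouse 2 and to 0.15 with every cell thinned to 2000 UMIs, and shrank to -0.21 without ancrod mouse 4.

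**Figure D4:**
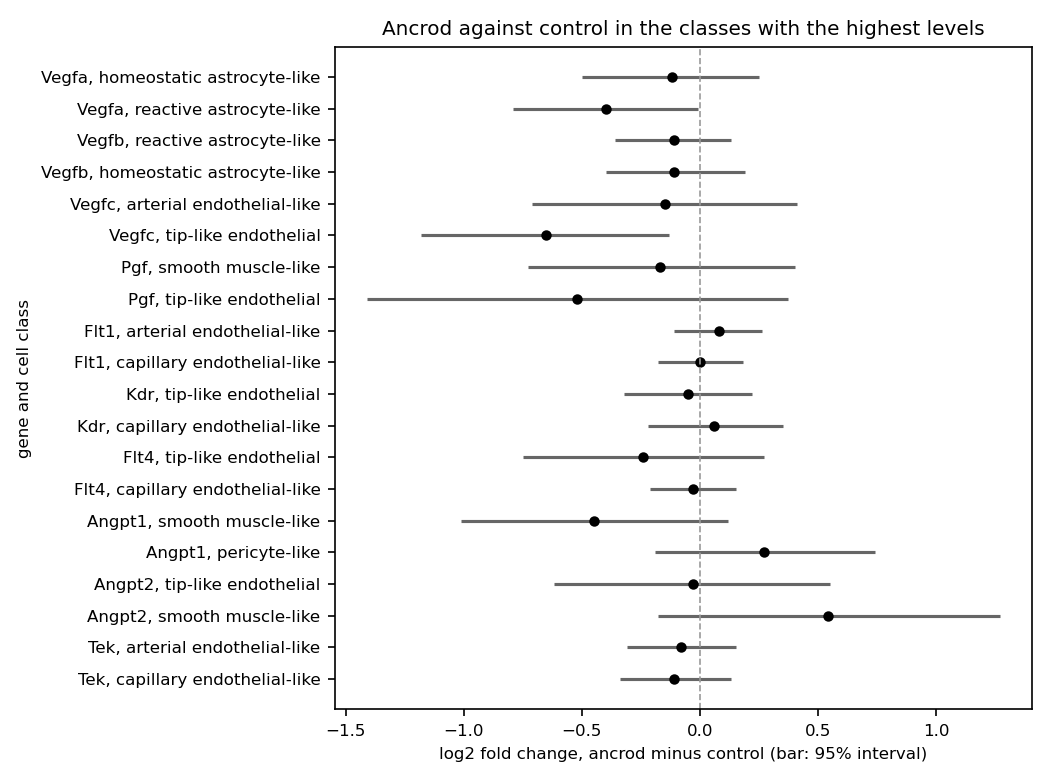
Log2 fold change of ancrod against control (horizontal axis, point) with its 95% interval (bar) for the 10 genes in the 2 classes with their highest level each. The points run from -0.65 to 0.54, and the intervals of Flt1 and Flt4 in capillary cells are the narrowest.

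In 2 of the 20 combinations the interval left out 0. Vegfc in tip-like cells averaged 53.2 CPM in control and 34.2 CPM in ancrod mice without overlap, a log2 fold change of -0.65 (-1.18 to -0.13; edgeR unadjusted p = 0.0188, adjusted p = 1). Vegfa in reactive astrocyte-like cells averaged 166 and 126 CPM with overlap, a log2 fold change of -0.40 (-0.79 to -0.01; edgeR unadjusted p = 0.0458, adjusted p = 1). Neither passed after adjustment. CPM did not overlap between the groups in 5 of the 112 tests (4.46%, against 3.28% over all genes): besides Vegfc, these were Kdr in fibroblast-like cells (6.83 in control against 3.13 in ancrod mice), Flt1 in pericyte-like cells (233 against 282), Vegfa in capillary cells (1.34 against 2.13) and Vegfb in arterial cells. In fibroblast-like cells 8.56% of all genes did not overlap. Apart from Vegfc, these means lay under the free RNA medians, 45.5 CPM for Kdr, 387 for Flt1, 64.1 for Vegfa and 51.9 for Vegfb. The part of free RNA in them was not tested.

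Flt1 had lower UMI levels with ancrod in 3 classes that are not endothelial, at an unadjusted edgeR p under 0.05. It averaged 21.2 against 6.12 CPM in all astrocyte-like cells, 11.1 against 3.87 CPM in border-associated macrophage-like cells and 6.10 against 3.83 CPM in microglia-like cells (adjusted p 0.717 to 1). The named astrocyte-like states held less, 3.10 against 2.66 CPM in homeostatic and 4.91 against 3.80 CPM in reactive cells (edgeR unadjusted p 0.425 and 0.560), so the pooled difference lay mostly in astrocyte-like cells left in neither state. Control mouse 3 was high in the first 2, at 48.2 and 30.9 CPM, where the other control mice held 8.27 to 14.2 and 2.09 to 8.25 CPM. Of the 136 astrocyte-like cells of that mouse, 70 were homeostatic and 60 reactive, so very few were left in neither state. All lay far under the free RNA level, and free RNA itself held 384 to 501 CPM of Flt1 in control and 206, 343, 223 and 482 CPM in ancrod mice. Endothelial-like cells were 19.5 to 22.8% of the cells of a control mouse and 6.94 to 16.9% of those of an ancrod mouse. The part of free RNA in these values was not tested.

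In libraries of dissociated tissue, fewer cells of a type, less recovery of that type and more cells of other types cannot be told apart. Cells without a name count in no endothelial total. They were 6.44 to 12.5% of the cells of a control mouse and 7.31 to 12.1% of those of an ancrod mouse. They held 2.78 to 8.41% of Flt1 UMIs in control and 11.5 to 19.9% in ancrod mice. These are shares of unlike totals, since Flt1 over all cells averaged 1100 CPM in control and 728 CPM in ancrod mice. The part of unnamed cells in the endothelial and zone shares was not tested. The endothelial-like cells of ancrod mice also carried more UMIs, with medians of 11700 to 17200 a cell against 7380 to 9780. Within the endothelium, tip-like cells were 0.962, 2.32, 2.52 and 2.27% of endothelial-like cells in control mice and 7.67, 2.89, 5.77 and 4.12% in ancrod mice. The groups did not overlap, and the difference of 3.09 percentage points had an exact two-sided permutation p of 0.0286, the smallest that 70 arrangements of 8 mice can give, and 0.114 after adjustment over 4 zones. In the first batch alone it was 3.51 points, with an adjusted exact p of 0.200, where 3 mice against 3 cannot go below an unadjusted p of 0.1. At the coarser clustering resolution of 1 it was 5.56 points. The share moved with a smaller endothelial total: tip-like cells numbered 12, 24, 33 and 24 in control and 30, 19, 32 and 34 in ancrod mice, while capillary cells numbered 619 to 855 and 220 to 487. As a share of all cells the tip-like zone overlapped between the groups, at 0.219 to 0.554% in control and 0.337 to 0.698% in ancrod mice. The capillary share of endothelial-like cells averaged 62.3% in control and 55.8% in ancrod mice, with an exact p of 0.0571 (adjusted 0.114). The tip-like zone holds few cells a mouse, and 12 to 21.4% of the endothelial-like cells of a mouse kept no zone.

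The zones matter here because a summed endothelial level mixes them. Each member was therefore set, mouse by mouse, as the log2 ratio of its level plus 1 CPM in the arterial, venous or tip-like zone to that in the capillary zone, and the ratios were compared between the groups. None of 30 such comparisons passed after adjustment, by the exact permutation test, and with 4 mice a group at least 18 would have had to reach the smallest p for any to pass. The lowest adjusted p was 0.214, for the 3 Vegfc ratios and for Flt4 in the arterial zone, all with an exact p of 0.0286.

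The Vegfc ratio of tip-like over capillary cells was 2.42, 2.84, 1.99 and 2.39 in control mice and 1.98, 0.453, 1.12 and 0.72 in ancrod mice, a difference of -1.34 log2 units, and -0.65 at a clustering resolution of 1. The venous ratio differed by -1.27 and the arterial ratio by -0.89. All 3 share their denominator: capillary cells held 9.47 CPM of Vegfc in control and 16 CPM in ancrod mice, so these are not 3 separate results. Mean levels in the numerators were lower with ancrod as well. They were 53.2 against 34.2 CPM in tip-like, 39.7 against 26.2 CPM in venous and 355 against 314 CPM in arterial cells. For venous cells the edgeR unadjusted p was 0.0457 and the adjusted p 0.999. Free RNA held 6.92 to 12.6 CPM of Vegfc in control and 5.06 to 20.2 CPM in ancrod mice, and its part in the ratios was not tested. In the first batch alone the differences were -1.23, -1.24 and -0.69, each with an adjusted exact p of 0.6, which 3 mice against 3 could not have brought under the threshold.

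**Figure D5:**
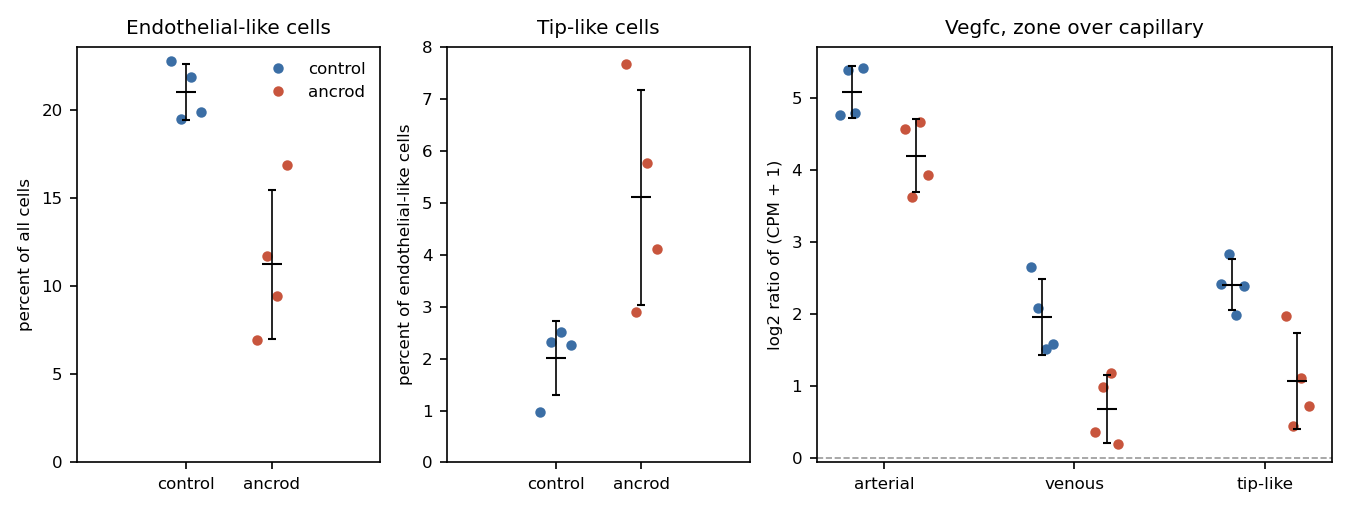
Left, endothelial-like cells as percent of all cells. Middle, tip-like cells as percent of endothelial-like cells. Right, log2 ratio of Vegfc (CPM plus 1) in each zone to the capillary zone. Each point is a mouse, blue for control and red for ancrod, with the mean (dash) and SD (bar). Ancrod mice lie below control mice on the left and above them in the middle, and their Vegfc ratios are lower in all 3 zones.

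The rest of the pathway was read from lists of co-receptors, angiopoietin partners, signal transducers, VEGF-responsive genes (Esm1 and Apln among them, which also name the tip-like zone) and oxygen-pathway regulators of Vegfa. No gene of any list passed the adjusted threshold in any of the 19 classes and zones by edgeR: 0 of 486 tests, against 0.00373% over all genes, with 43 (8.85%) at an unadjusted p under 0.05 against 5.62% over all genes. The lowest adjusted p was 0.182, for Egr3 in fibroblast-like cells. Of the VEGF-responsive genes, 10 of 11 were tested in all endothelial-like cells, with a median log2 fold change of 0.39 against 0.01 for all genes tested, and by zone the medians were 0.50 in capillary (8 tested), 0.34 in venous (8), 0.04 in arterial (7) and 0.08 in tip-like cells (9), where those of all genes lay between -0.01 and 0.01. Such medians were not limited to endothelium: the same list stood at 0.43 in pericyte-like (5 tested), 0.37 in border-associated macrophage-like (6) and 0.34 in homeostatic astrocyte-like cells (5). Nor were they general, with -0.03 in microglia-like (8 tested), -0.07 in NK cell-like (2) and -0.54 in neuron-like cells (3). The 5 co-receptors and further family members, among them Nrp1, Nrp2 and the Tek phosphatase Ptprb, had a median of 0.19 in endothelial-like cells. The 8 oxygen-pathway regulators, among them Hif1a and Epas1, had a median of -0.10 in homeostatic astrocyte-like cells against 0.00 for all genes tested there. The signal transducers had medians of -0.03 in endothelial-like and 0.04 in tip-like cells. Of the 5 angiopoietin partners, among them Tie1 and Angptl4, 3 were tested in endothelial-like cells, with a median of 0.37. Where only 2 were tested, medians were 0.51 in homeostatic astrocyte-like, 0.46 in reactive astrocyte-like, 0.41 in all astrocyte-like and 0.56 in monocyte-like cells. They were 0.275 in venous, 0.16 in pericyte-like, 0.15 in arterial and 0.13 in capillary cells. Tip-like (-0.05), macrophage-like (-0.19), microglia-like (-0.20) and dendritic cell-like cells (-0.32) stood below 0.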

How the data were processed

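Single-cell libraries (10x 3′ v3.1) of 8 mice were analysed. Per the labels and the study's methods, the authors made the deposited UMI count matrices with Cell Ranger 7.1.0 and STAR on GRCm39 (mm39), with exonic and intronic reads; the values are raw counts of all barcodes and no normalization was applied. The 10 members and all gene and marker lists were chosen with earlier results of these data known. Droplets of at least 2000 UMIs and under 20% mitochondrial UMIs (46216) were kept, 2144 doublets (cells nearest to simulated pairs) were removed and cells were clustered (leidenalg 0.10.2, 3000 variable genes without the members, 20 components, resolution 2). Clusters were named by their highest marker score with at least 3 markers detected, and left unnamed where markers of an unrelated class reached 50% of that score or led the cluster; 1 B cell-scored cluster was unnamed after its leading genes were seen. Endothelial-like and astrocyte-like cells were clustered again. UMIs were summed per mouse and class (at least 10 cells, at least 3 mice a group; smooth muscle-like and tip-like cells are the sparsest) and tested with edgeR 4.0.16 (TMM, filterByExpr, glmQLFit), treatment only, in R 4.3.3. CPM was computed from the summed counts. Zone ratios and shares were tested by exact permutation (numpy 2.4.6). The 2 classes named for each member are those with its highest mean CPM. Both procedures were tested on simulated data. The neuron-like values leave out control mouse 3, with 6 cells. Alternatives were DESeq2 1.42.0, batch as a covariate, batch 1 only, replicate block, each mouse left out, other cell filters, thinning to 2000 UMIs, doublets kept, resolution 1, no filter on low counts and a pseudocount of 10 CPM. UMI totals set the precision, and no counting interval is given beside the spread between mice.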

Additional observations from a re-analysis of the deposited data

Results flagged for a closer look

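The tip-like share of endothelial-like cells in control mouse 1, 0.962%, lay far below the 2.27 to 2.52% of the other 3 control mice. Its gap to the nearest of them was 0.84 of the whole range of the group, above the Dixon 95% limit for 4 samples. The share rests on 12 cells. Of 50 groups of 4 mice looked at in this way 1 was marked, and chance alone marks about 1 in 20. Without this mouse the difference in the tip-like share between ancrod and control mice was 2.74 percentage points, with an adjusted exact p of 0.171.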

How the results depend on the processing

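No member was called in any class under any alternative. No zone ratio or zone share passed either, but this says nothing of stability: 3 mice against 3 cannot go below an unadjusted p of 0.1, sign flips not below 0.125, and with 4 against 4 at least 18 of 30 ratios or 3 of 4 shares would have had to reach the smallest p. The lowest adjusted p for a member ranged from 0.0868 (DESeq2) to 0.448 (cells thinned to 2000 UMIs), and 6 to 28 tests had an unadjusted p under 0.05, the 28 without a filter on low counts. Of 375 recomputed log2 fold changes, 14 changed sign, none of them past the threshold in either direction. Vegfb in homeostatic astrocyte-like cells became 0.05 with mitochondrial UMIs under 10%, Pgf in tip-like cells 0.15 after thinning and Kdr in tip-like cells 0.10 at resolution 1. Leaving out 1 mouse at a time gave ranges of -0.26 to 0.01 for Vegfa and -0.18 to 0.04 for Vegfb in homeostatic astrocyte-like cells, -0.36 to 0.09 for Vegfc in arterial cells, -0.33 to 0.07 for Pgf in smooth muscle-like and -0.80 to 0.06 in tip-like cells, -0.10 to 0.01 for Kdr in tip-like and -0.02 to 0.17 in capillary cells, -0.07 to 0.03 for Flt4 in capillary cells and -0.23 to 0.37 for Angpt2 in tip-like cells. The cause was not tested. Of 280 recomputed levels 2 moved by more than the spread between mice, both after thinning: Vegfa to 105 CPM and Vegfb to 110 CPM in reactive astrocyte-like cells. The class of the highest level was the same in 58 of 60 recomputations, with Pgf and Flt4 differing after thinning. At resolution 1 the tip-like share differed by 5.56 points between the groups (adjusted exact p 0.114) and the Vegfc tip-like ratio by -0.65.

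Correlations of the deviations of same-numbered mice of the 2 groups ran from -0.48 to 0.50, and no class had every pair above 0.1. The pair numbered 4, the whole second batch, was positive in most classes, with 0.28 in capillary and 0.50 in neuron-like cells. It was negative in microglia-like cells (-0.10) and in all (-0.11), homeostatic (-0.07) and reactive (-0.01) astrocyte-like cells. With the replicate block edgeR called no member (lowest adjusted p 0.0871, 13 tests at an unadjusted p under 0.05), and Angpt2 in tip-like cells became 0.03.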
